A study of Mus musculus with 12 samples.

Results

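The liver X receptors and their sterol genes were followed through 12 RNA-seq libraries of mouse bone marrow-derived macrophages (BMDMs). The set holds 10 genes: the receptors Nr1h2 (LXRβ) and Nr1h3 (LXRα), the sterol exporters Abca1 and Abcg1 with the lipoprotein Apoe, the oxysterol enzyme Ch25h, and the lipid synthesis genes Srebf1, Scd1, Scd2 and Lpcat3. They were taken by symbol from the deposited gene counts, and 10 of 10 were found among 43131 genes. The mice were C57BL/6, and the marrow cells were cultured with M-CSF (50 ng/ml, 7 days). They came from tlr4f/f mice, whose Tlr4 is flanked by loxP sites, or from tlr4f/f-lysM-cre mice, in which Cre, expressed from the lysM (Lyz2) locus, is meant to delete Tlr4 in myeloid cells. All 4 groups carry the floxed Tlr4. Cells were left unstimulated (LPS-) or stimulated with LPS (LPS+; 1 µg/mL, 6 h), with 3 libraries per group. The labels do not say whether the 3 libraries came from separate mice, so p-values measure the spread between these libraries, which may be technical. Because 2 column headings are in doubt, the groups carry letters. Group A is headed LPS- tlr4f/f. Group B is headed LPS- tlr4f/f-lysM-cre. Group C is headed LPS+ tlr4f/f. Group D is headed LPS+ tlr4f/f-lysM-cre.

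Tlr4, the targeted gene, went against the column headings. Its mean was 115 ± 35.3 CPM, a count scaled to its library's size (SD, n = 3), in A, 110 ± 12.5 in B, 27.7 ± 3.40 in C and 25.6 ± 1.64 in D. The count covers the whole transcript, so reads outside a deleted part are still counted. Lyz2, the locus that carries Cre, was at 5950 to 23264 CPM in the 6 libraries of A and B and at 10.4 to 75.6 CPM in the 6 of C and D. Il1b, a cytokine gene induced by LPS, was at 1640 to 8220 CPM in the 6 libraries of B and D and at 0.0747 to 6.93 CPM in the 6 of A and C. The headings of B and C may therefore have been exchanged, and both readings are given throughout. As headed, B and D are the Cre groups and C and D were given LPS. With the exchange, B is tlr4f/f given LPS and C is unstimulated tlr4f/f-lysM-cre, while A and D keep their meaning. A letter names the same libraries in both readings, so the level of a gene in a group does not depend on them. C versus A is the effect of LPS in the floxed control as headed and of the genotype without LPS with the exchange. D versus B is LPS in the Cre genotype as headed and the genotype under LPS with the exchange. D versus C is the genotype under LPS as headed and LPS in the Cre genotype with the exchange. B versus A is the genotype without LPS as headed and LPS in the floxed control with the exchange. D versus A, in which genotype and LPS differ together, and the interaction of genotype and LPS are the same in both readings. Tests were edgeR's quasi-likelihood tests over all genes. A differentially expressed gene (DEG) changed more than 2-fold at an adjusted p under 0.01, and a gene is said to rise or fall where the adjusted p was under 0.05.

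Counts over genes were between 33577087 and 56445268 per library. The summed level of 7 macrophage markers was 4499 to 13717 CPM in every library, with 7 of 7 markers detected. It was 6234 to 7446 CPM in A, 10831 to 13717 in B, 4499 to 4801 in C and 7782 to 7994 in D. The sum of 7 fibroblast and stroma markers was 23.6 to 52.4 CPM in the 6 libraries of C and D, 11.3 to 746 in A and 154 to 1686 in B. It was highest in replicates 3 and 1 of B and replicate 1 of A, and calls are also given without these 3 libraries. Adipocyte markers summed to at most 0.222 CPM, and 0 of 5 reached 10 counts in any library, with Lep at 0 in all 12. The 8 neutrophil markers summed to at most 27.9 CPM in 11 libraries and to 192 in replicate 3 of B. The 4 dendritic cell markers summed to 2.57 to 6.13 CPM in the 6 libraries of B and D and at most 0.650 in the other 6. Erythroid markers reached at most 3.30 CPM and lymphocyte markers at most 1.12 CPM. In bulk RNA, fewer cells of a type and less RNA per cell cannot be told apart, and the part of these cells in the results was not tested.

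LXRs are nuclear receptors that sense oxysterols, the oxidized forms of cholesterol. Paired with a retinoid X receptor (RXR), they bind direct repeats in the promoters of their targets and raise transcription when an oxysterol is bound. In macrophages that take up dying cells or lipoproteins, their targets carry cholesterol out of the cell and turn on fatty acid synthesis, and activated LXRs restrain inflammatory genes. Ch25h makes an oxysterol from cholesterol, is induced by interferons in macrophages, and its product also restrains sterol synthesis.

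RefSeq promoter windows, 250 bases before to 50 after a transcription start on GRCm38.p6, were given for 7 of the 10 members. They were searched on both strands for 5 motifs. The LXR element, called DR4, was written as AGGTCA, any 4 bases and AGGTCA again, and up to 3 of its 12 fixed letters could differ. The others had to match in every letter: the cAMP response element (CRE) TGACGTCA, the interferon-stimulated element of GAAA, any 2 bases and GAAA, the kappaB element of GGG, any 2 bases, TT, any base and CC, and the sterol regulatory element TCACNCCAC. No motif holds another. The promoters of Abca1 and of an internal start of Srebf1 are shown because they hold the DR4 match, and that of Ch25h because it holds the CRE and is the member with the widest range of levels. Each is the 250 bases before the start, 5′ to 3′ on the strand of the gene, with the match in capitals.
Abca1 (chr4:53159896-53160145, minus strand): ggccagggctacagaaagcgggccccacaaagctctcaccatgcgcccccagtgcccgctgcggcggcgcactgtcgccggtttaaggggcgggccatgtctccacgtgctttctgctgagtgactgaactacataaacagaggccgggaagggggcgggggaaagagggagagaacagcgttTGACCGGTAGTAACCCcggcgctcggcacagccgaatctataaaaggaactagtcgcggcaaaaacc
Srebf1 (chr11:60210472-60210721, minus strand): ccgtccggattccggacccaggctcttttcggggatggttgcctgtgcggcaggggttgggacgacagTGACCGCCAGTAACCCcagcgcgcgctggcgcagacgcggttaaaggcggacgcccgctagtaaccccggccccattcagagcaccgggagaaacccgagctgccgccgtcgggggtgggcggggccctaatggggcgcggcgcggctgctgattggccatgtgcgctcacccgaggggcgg
Ch25h (chr19:34475149-34475398, minus strand): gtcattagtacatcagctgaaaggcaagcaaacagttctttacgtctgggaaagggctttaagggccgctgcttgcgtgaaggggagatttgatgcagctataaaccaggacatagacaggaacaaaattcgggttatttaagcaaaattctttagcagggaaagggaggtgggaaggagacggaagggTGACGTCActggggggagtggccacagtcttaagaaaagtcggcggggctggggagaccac

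The DR4 match of Abca1 lies from -67 to -52 and that of Srebf1 from -182 to -167, each on the opposite strand and each with 3 mismatches. Of all 32851 windows, 21.9% hold a DR4 match this loose. The CRE of Ch25h, from -61 to -54, matches every letter and reads the same on both strands, and 1.79% of windows hold one. A kappaB match lies from -22 to -13 of another Srebf1 start (4.79% of windows). None of the 7 members' windows holds the interferon-stimulated element (3.44% of windows) or the sterol regulatory element (1.24%) as written. In GENCODE vM21, the Abca1 region overlaps no gene, the Srebf1 region lies inside Srebf1 and overlaps no exon, and all 250 bases of the Ch25h region lie inside Gm26902 on the other strand. Of them, 16 lie in an exon of Ch25h and 16 in an exon of Gm26902. A match describes the letters only.

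On mm10, the receptor genes are Nr1h2 (chr7:44549616-44553951) and Nr1h3 (chr2:91184061-91202834). The export genes are Abca1 (chr4:53030787-53159895), Abcg1 (chr17:31057675-31117988) and Apoe (chr7:19696109-19699188). Scd2 (chr19:44293674-44306864) and Scd1 (chr19:44394455-44407879) lie 87590 bases apart on opposite strands, and Ch25h (chr19:34473778-34475164) is on the same chromosome. Srebf1 (chr11:60199089-60222581) overlaps Rai1, and Lpcat3 (chr6:124663027-124704418) overlaps Emg1, both on the other strand. Ch25h overlaps the noncoding Gm26902, counted at most 65 times in a library, and Rai1 and Emg1 were counted at most 2210 and 2528 times. The library kit does not mark strand, so reads in the overlaps cannot be assigned. The row used for Srebf1 cannot tell its isoforms apart, since its second of 7 rows held 97.5% of the count of the first. Scd1 and Scd2 are close paralogs, and how reads that fit both were counted is not given in the sources used here.

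Nr1h3, the receptor enriched in macrophages, liver and fat, ranged from 12.2 to 111 CPM. It was at 36.2, 25.0 and 12.2 CPM in A, at 111, 92.7 and 75.5 in B, at 15.0, 13.1 and 15.4 in C and at 58.9, 50.8 and 49.6 in D. Every library of B and D was above every library of A and C, and A and C overlapped. In D Nr1h3 rose 3.63-fold over C, a log2 fold change of 1.86 (SE 0.0843, adjusted p = 1.47e-09 in edgeR). In B it rose 3.78-fold over A, 1.92 on the log2 scale (SE 0.403, adjusted p = 0.0122 in edgeR). From B to D it fell by 0.80 on the log2 scale (SE 0.160, adjusted p = 0.0142 in edgeR), and its adjusted p became 0.0542 to 0.0779 when any 1 replicate of D was left out. Between C and A the log2 fold change was -0.73 (SE 0.378, adjusted p = 0.286 in edgeR), and -1.06 with an adjusted p of 0.0211 without replicate 3 of A. Without replicate 1 of A it was -0.32 with an adjusted p of 0.550. D versus A gave 1.11 (SE 0.374, adjusted p = 0.0566 in edgeR). Its adjusted p was 0.0173 without replicate 1 and 0.0179 without replicate 3 of A. It was 0.1158 to 0.1495 without replicate 2 of A or any 1 replicate of D.

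Nr1h2, the receptor found in most tissues, followed the same order of groups over a smaller range. Its means were 86.8 ± 11.2 CPM in A, 137 ± 17.4 in B, 72.4 ± 5.57 in C and 97.6 ± 5.45 in D (SD, n = 3). It rose by 0.42 on the log2 scale in D over C (SE 0.0649, adjusted p = 1.0e-04 in edgeR). In B it rose by 0.65 over A (SE 0.163, adjusted p = 0.0223 in edgeR), and it fell by 0.48 from there to D (SE 0.114, adjusted p = 0.0244 in edgeR). The rise in B over A had an adjusted p of 0.0521 to 0.0651 without replicate 1, 2 or 3 of A or replicate 1 or 2 of B. The fall from B to D had 0.0884 to 0.125 without any 1 replicate of D. Between C and A the log2 fold change was -0.24 (adjusted p = 0.296 in edgeR), and -0.35 with an adjusted p of 0.0471 without replicate 3 of A. Without replicate 1 of C it was -0.18 with an adjusted p of 0.609.

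**Figure D1:**
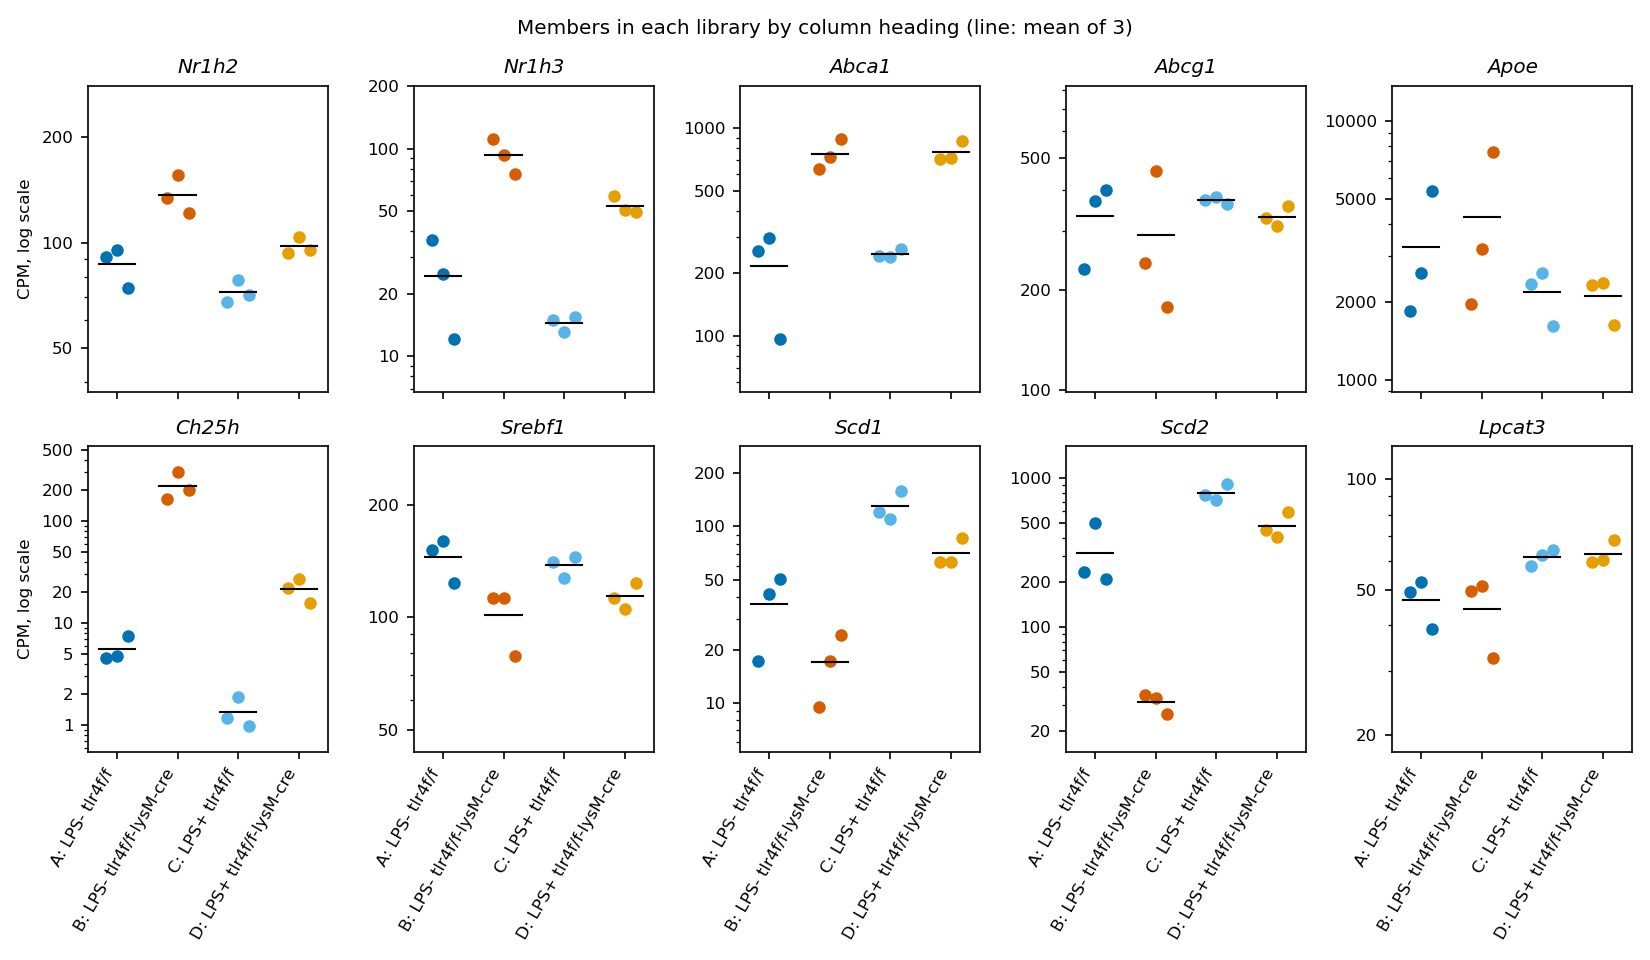
CPM of each of the 10 members on a log axis, by group, with a point for each library and a line at the mean of 3. Ch25h, Nr1h3 and Abca1 were higher in each library of B and D than in any of A and C, while Scd2 was lowest in B at 26.2 to 35.3 CPM. The share of all genes that separate in this way was not counted.

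Abca1, which passes cholesterol to lipid-poor apolipoproteins, was higher in B and D than in A and C. It was at 257, 297 and 96.5 CPM in A and at 243, 239 and 262 in C. It was at 634, 729 and 887 CPM in B and at 710, 721 and 870 in D. The 6 libraries of B and D did not overlap with those of A and C, while B overlapped with D and A with C. In D Abca1 rose 3.08-fold over C, 1.62 on the log2 scale (SE 0.0817, adjusted p = 1.25e-08 in edgeR). It rose 3.44-fold in B over A, 1.78 on the log2 scale (SE 0.430, adjusted p = 0.0194 in edgeR), with an adjusted p of 0.0550 without replicate 3 of B. In D it rose 3.54-fold over A (adjusted p = 0.0153 in edgeR), with adjusted p of 0.0502 and 0.0544 without replicate 2 or 3 of D. From B to D the log2 fold change was 0.04 (SE 0.171, adjusted p = 0.891 in edgeR).

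Abcg1, which passes cholesterol to high-density lipoprotein, did not follow Abca1. Its means were 333 ± 90.5, 292 ± 146, 372 ± 8.40 and 332 ± 23.6 CPM in A, B, C and D (SD, n = 3). It fell by 0.17 on the log2 scale in D from C (SE 0.0595, adjusted p = 0.0257 in edgeR). This call was lost, with adjusted p of 0.0713 to 0.142, without replicate 1 or 2 of C or replicate 1 or 2 of D. In the other pairs of groups Abcg1 had log2 fold changes from -0.21 to 0.21 and passed no test. From B to D its log2 fold change of 0.21 (adjusted p = 0.662 in edgeR) was 0.67 with an adjusted p of 0.0300 without replicate 2 of B. It turned to -0.46 with an adjusted p of 0.00104 without the 3 libraries highest in stroma markers, which leaves 1 library of B.

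Apoe, an apolipoprotein that macrophages secrete and that accepts exported cholesterol, was the most abundant member per length, with 1203 to 5650 CPM per kilobase of transcript. Its level was 1834, 2584 and 5372 CPM in A and 1969, 3200 and 7588 in B. It was 2351, 2589 and 1615 CPM in C and 2329, 2362 and 1630 in D. The 4 groups overlapped, and the SD was 57.1% of the mean in A, 69.5% in B, 23.2% in C and 19.6% in D. Apoe passed the test in none of the 6 comparisons, and its log2 fold changes ran from -1.01 in D versus B to 0.38 in B versus A. Without replicate 1 of B, the value of D versus B was -1.37 with an adjusted p of 0.0463. Without replicate 3 of B it was -0.30 with an adjusted p of 0.4175.

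Ch25h, the cholesterol hydroxylase, had the widest range of all members, from 0.981 to 303 CPM. It was counted 266, 293 and 399 times in A, 6127, 9679 and 6436 times in B, 56, 74 and 57 times in C and 949, 981 and 710 times in D. In CPM this was 4.55, 4.70 and 7.46 in A, 164, 303 and 200 in B, 1.17, 1.90 and 0.981 in C and 21.9, 27.1 and 15.8 in D. The 4 groups did not overlap. Ch25h rose 39.6-fold in B over A, 5.31 on the log2 scale (SE 0.345, adjusted p = 0.000466 in edgeR). It rose 16.3-fold in D over C, 4.03 on the log2 scale (SE 0.299, adjusted p = 2.15e-05 in edgeR). As headed, these are the effects of the genotype without and with LPS, and with the exchange they are the effects of LPS without and with Cre.
D was 10.2-fold below B, a log2 fold change of -3.35 (SE 0.294, adjusted p = 0.00135 in edgeR). Without any 1 replicate of D the log2 fold change was -3.54 to -3.16 and the adjusted p 0.0141 to 0.0172. Ch25h was then no longer a DEG. Those fits had 4 to 15 DEGs over all genes, against 865 with all replicates. C was 4.06-fold below A, -2.02 on the log2 scale, with an adjusted p of 0.0526 in edgeR. It passed 0.05 without replicate 2 (0.0425) or 3 (0.0232) of A, and DESeq2 gave 3.46e-06. In edgeR it was 0.0761 without replicate 1 of A and 0.251 to 0.280 without any 1 replicate of C. With the replicate number as a block it was 0.162. Without a replicate of C or with this block, 0 of all genes rose or fell in C versus A. Ch25h was also 3.87-fold higher in D than in A (log2 fold change 1.95, SE 0.285, adjusted p = 0.00334 in edgeR). That adjusted p was 0.0120 to 0.0191 without replicate 2 of A or replicate 1 or 2 of D. The interaction of genotype and LPS had a log2 value of -1.31 for Ch25h (SE 0.454, adjusted p = 0.112 in edgeR) and 0.0231 as the adjusted p in DESeq2.

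Scd2, a desaturase that makes monounsaturated fatty acids, had its lowest levels in B. It was at 234, 502 and 211 CPM in A, at 35.3, 33.3 and 26.2 in B, at 769, 715 and 917 in C and at 448, 403 and 596 in D. The libraries of B lay below all others, and A and D overlapped. Scd2 was 10.1-fold lower in B than in A, a log2 fold change of -3.33 (SE 0.388, adjusted p = 0.00172 in edgeR). It was no longer a DEG when replicate 2 (0.0103) or 3 (0.0101) of B was left out. It fell by 0.74 on the log2 scale in D from C (SE 0.178, adjusted p = 0.0142 in edgeR), with an adjusted p of 0.0585 without replicate 1 of D. It rose 15.3-fold from B to D, 3.94 on the log2 scale (SE 0.210, adjusted p = 0.000682 in edgeR). Scd2 was no longer a DEG (0.0119) without replicate 1 of D, where 4 of 14789 genes were DEGs. Between C and A its log2 fold change was 1.37 (SE 0.355, adjusted p = 0.0938 in edgeR), and 1.87 with an adjusted p of 0.0134 without replicate 2 of A. Without any 1 replicate of C the adjusted p of this comparison was 0.2755 to 0.3043 in edgeR.
The 2 differences, -3.33 and -0.74, were themselves unlike, by a log2 interaction of 2.59 (SE 0.430, adjusted p = 0.00877 in edgeR over 12 libraries). As headed, the genotype effect on Scd2 was smaller with LPS, and with the exchange the effect of LPS was smaller with Cre. The value was 2.40 to 2.69 with an adjusted p of at most 0.0372 when any 1 library of B, C or D was left out, so that it passed 0.05 but was not a DEG.

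Scd1, the other desaturase, had a like order at lower levels. It was at 17.3, 41.7 and 50.3 CPM in A, at 9.47, 17.3 and 24.3 in B, at 121, 110 and 159 in C and at 62.7, 63.1 and 86.6 in D. The 6 libraries of C and D lay above the 6 of A and B, and A and B overlapped. Scd1 rose 4.18-fold from B to D, 2.06 on the log2 scale (SE 0.347, adjusted p = 0.00859 in edgeR), and its adjusted p was 0.0200 to 0.0447 without replicate 2 of B or any 1 replicate of D. It fell by 0.88 in D from C (SE 0.206, adjusted p = 0.0150 in edgeR), with adjusted p of 0.0584 and 0.0560 without replicate 1 or 2 of D. Between C and A its log2 fold change was 1.86 (SE 0.395, adjusted p = 0.0683 in edgeR), with an adjusted p of 0.0424 without replicate 3 of A and 4.75e-05 in DESeq2. In edgeR the adjusted p was 0.251 to 0.280 without any 1 replicate of C and 0.162 with the replicate number as a block. B versus A gave -1.10 (adjusted p = 0.121 in edgeR), with 0.0392 when replicate 1 of A was left out and 0.287 when replicate 3 of A was.

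Srebf1 encodes the transcription factor SREBP1, which drives fatty acid synthesis genes. Its means were 145 ± 18.7, 101 ± 19.6, 137 ± 9.47 and 114 ± 9.24 CPM in A, B, C and D (SD, n = 3). It fell by 0.28 on the log2 scale in D from C (SE 0.0698, adjusted p = 0.00397 in edgeR), a call lost in a single fit of all 12 libraries (adjusted p = 0.202). For B versus A its log2 fold change was -0.53 (SE 0.193, adjusted p = 0.0727 in edgeR), with no overlap between the groups. Versus A, D gave -0.35 (adjusted p = 0.0654 in edgeR), and -0.46 with an adjusted p of 0.00811 without replicate 3 of A. Without replicate 2 of D it gave -0.29 with an adjusted p of 0.227.

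Lpcat3, which places polyunsaturated acyl chains in phospholipids, differed mainly between A or B and C or D. Its means were 46.9 ± 6.98 and 44.4 ± 10.4 CPM in A and B, and 61.5 ± 3.02 and 62.7 ± 5.07 in C and D (SD, n = 3). The 6 libraries of C and D lay above the 6 of A and B. It rose by 0.42 on the log2 scale in D over A (SE 0.132, adjusted p = 0.0464 in edgeR), but not by voom (0.0597), with a filter of 1 count (0.0746), in the single fit of 12 libraries (0.0717) or with rows summed (0.0686). The adjusted p was 0.0623 to 0.150 without replicate 1 of A or any 1 replicate of D. The log2 fold change was 0.41 in C versus A (adjusted p = 0.122 in edgeR) and 0.51 in D versus B (adjusted p = 0.0779 in edgeR).

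**Figure D2:**
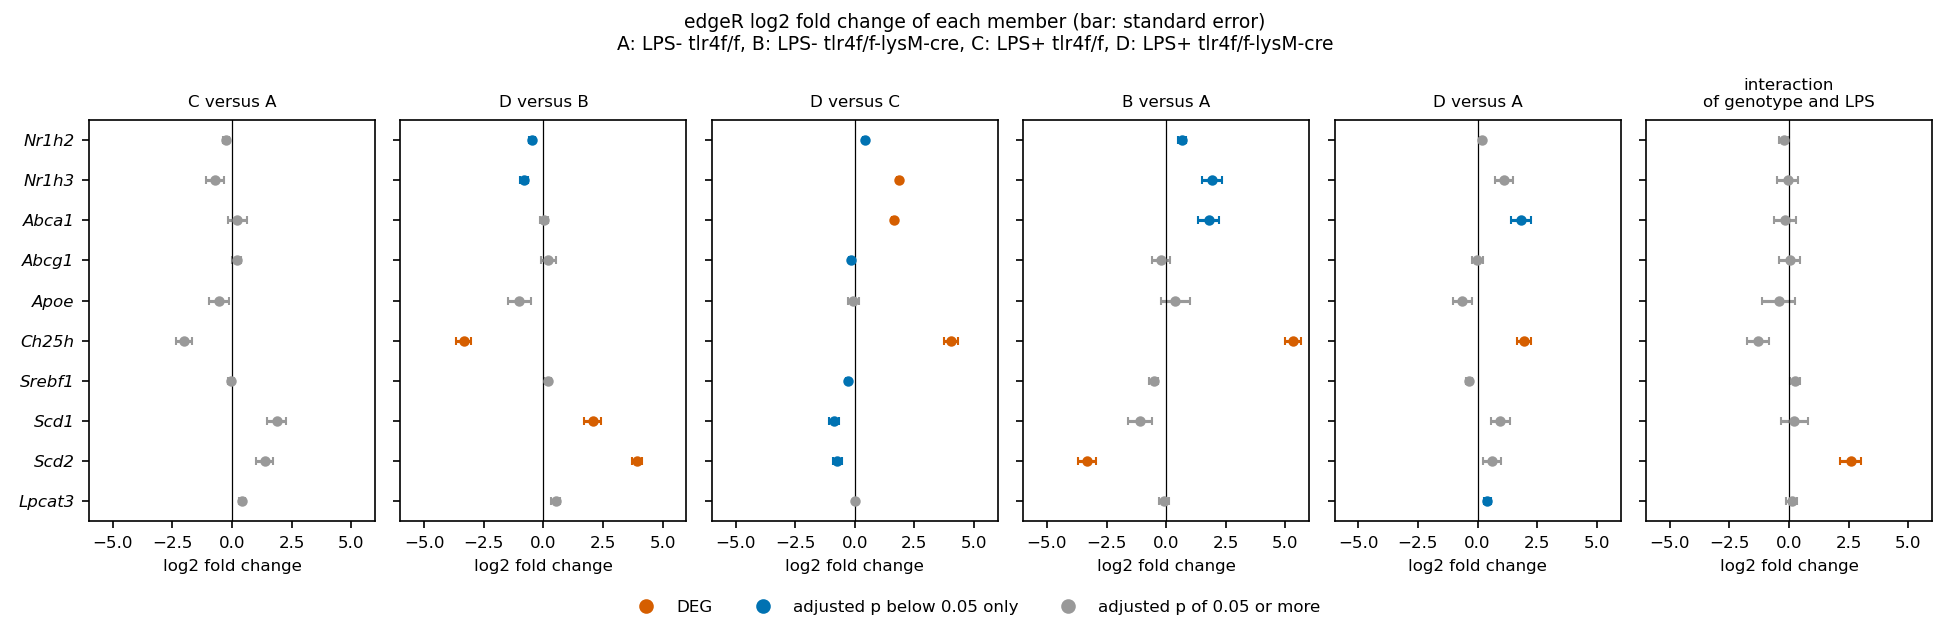
Log2 fold change of the 10 members in 6 comparisons, with bars of 1 standard error, from edgeR. Ch25h was at 5.31 in B versus A and at 4.03 in D versus C, and Scd2 was the DEG of the interaction at 2.59.

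Counts of members were read against all genes tested. The share of all genes whose groups do not overlap, as was seen for some members, was not counted. In D versus C, 3 of 10 members were DEGs (Nr1h3, Abca1 and Ch25h), against 21.7% of 14540 genes. There, 4 members rose and 4 fell, against 30.5% and 31.0% of all genes. In a single fit of all 12 libraries the 4 rises still passed. Abcg1 (adjusted p = 0.736), Srebf1 (0.202), Scd1 (0.122) and Scd2 (0.0899) did not, which leaves 4 higher and 0 lower. In that fit 2637 of 15775 genes rose and 2275 fell in D versus C. In B versus A, 2 members were DEGs (Ch25h and Scd2) against 17.1% of 14635 genes, with 4 rising (17.9% of genes) and 1 falling (19.4%). In D versus B, 3 were DEGs (Ch25h, Scd1 and Scd2) against 6.08% of 14234 genes, with 2 rising (12.5%) and 3 falling (14.2%). The single fit also moved Srebf1 (0.0145) and Scd1 (0.0395) below 0.05 in B versus A and Nr1h3 (0.0687) above it in D versus B, where Lpcat3 (0.0472) came below. Ch25h (0.0118), Scd1 (0.0343) and Scd2 (0.0364) passed 0.05 in that fit in C versus A, and Nr1h3 (0.0146) in D versus A. Over 15775 genes that fit had 285 rises and 439 falls in C versus A, and 3016 and 3123 in D versus A. It had 3846 and 4515 in B versus A and 2275 and 2242 in D versus B. In D versus A, 1 was a DEG (Ch25h) against 13.4% of 14584 genes, with 3 rising (20.4%) and 0 falling (20.4%). The interaction had 1 DEG (Scd2) against 1.04% of 15775 genes, with 1 higher (4.32%) and 0 lower (2.66%). In C versus A, 0 members were DEGs by edgeR, as were 0% of 14701 genes, and 0 rose or fell, against 0.599% and 0.673% of genes. In that comparison 4 members and 3624 genes had an unadjusted p below 0.05, and DESeq2 called 3 members and 467 genes DEGs. The median log2 fold change of the 10 members lay between -0.02 and 0.51 over the 6 comparisons and that of all genes between -0.08 and 0.07. The comparisons share libraries, and their values are given side by side only.
Without the 3 libraries highest in stroma markers, B has 1 library and A has 2. B versus A then had 0 DEGs among members and 0 among all genes, with 4098 genes at an unadjusted p below 0.05. The log2 fold changes there were 5.67 for Ch25h (adjusted p = 0.0371), -3.39 for Scd2 (0.102), 2.35 for Nr1h3 (0.0981), 1.92 for Abca1 (0.240) and 0.91 for Nr1h2 (0.165), in edgeR with the lone library assumed to vary as the others. From B to D, with 1 library in B, the log2 fold changes were -3.82 for Ch25h, 2.03 for Scd1 and 3.85 for Scd2. In D versus A, Ch25h at 1.83 remained the DEG among members, where 1916 of 14997 genes were DEGs. The interaction of Scd2 was 2.69 with an adjusted p of 0.0309 and was no longer a DEG. D versus C holds none of these libraries.

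Ratios within a library do not depend on its scaling. Per kilobase of transcript, Nr1h3 was at 0.170 to 0.411 of Nr1h2 in A and 0.173 to 0.229 in C. It was at 0.617 to 0.859 in B and 0.506 to 0.651 in D, so Nr1h2 was the more abundant receptor transcript in all 12 libraries. Abca1 was below Abcg1 in the 6 libraries of A and C, at 0.137 to 0.633 of it. It was above Abcg1 in 5 of the 6 of B and D, at 0.906 to 2.84 in B and 1.22 to 1.38 in D. Scd2 exceeded Scd1 by 5.12 to 5.75 times in C and 5.67 to 6.33 times in D. This ratio was 3.72 to 12.04 in A and 0.956 to 3.31 in B, below every other library.

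**Figure D3:**
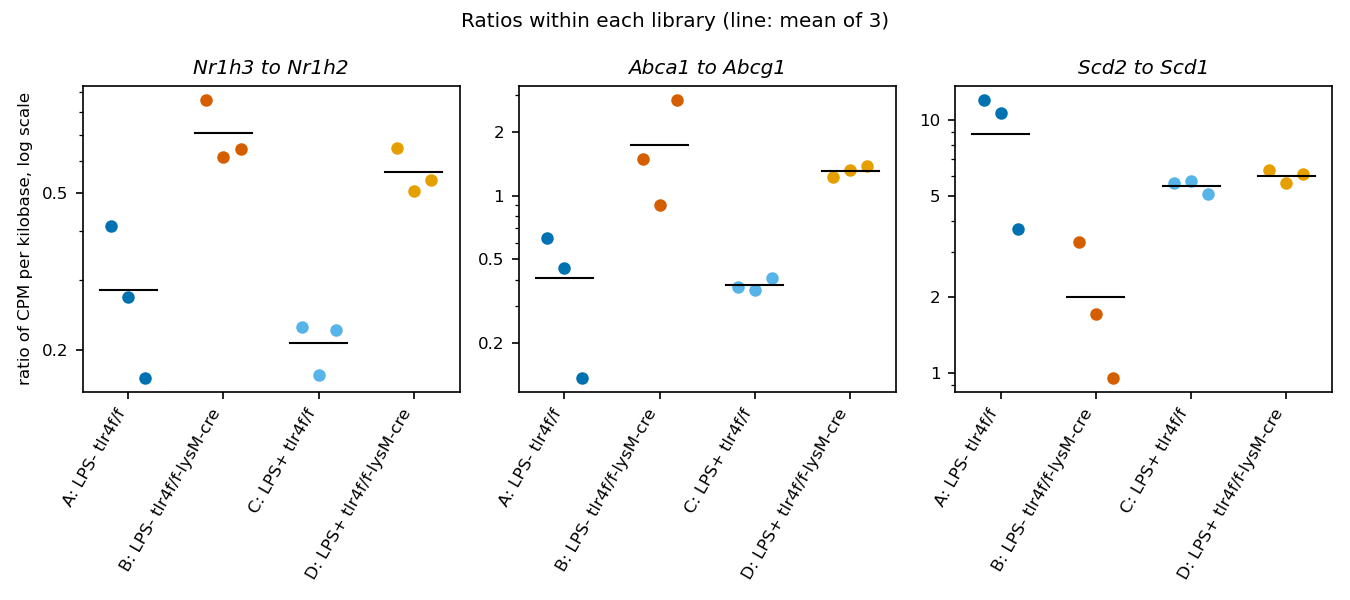
Ratio of CPM per kilobase within each library for Nr1h3 to Nr1h2, Abca1 to Abcg1 and Scd2 to Scd1, on log axes, with a point for each library and a line at the mean of 3. The receptor ratio was 0.506 to 0.859 in the 6 libraries of B and D and 0.170 to 0.411 in the 6 of A and C.

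Other genes of the pathway were taken from 4 lists of 34 genes in all. Rxrg, Cyp7b1, Apoc1 and Abcg4 were too low to be tested in any comparison. In D versus C, 6 of 30 genes rose and 21 fell (30.5% and 31.0% of all genes), with a median log2 fold change of -0.57 against -0.02 over all genes. In B versus A, 0 of 29 rose and 15 fell (17.9% and 19.4% of all genes), with a median of -1.04 against -0.08. From B to D, 10 of 29 rose and 4 fell (12.5% and 14.2% of all genes), with a median of 0.27 against 0.03. In D versus A, 0 of 30 rose and 13 fell (20.4% and 20.4% of all genes). In C versus A, 2 rose and 0 fell (0.599% and 0.673%), and in the interaction 1 was higher and 0 lower (4.32% and 2.66%).

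The list headed LXR partners holds the RXRs, the corepressor Ncor1 and the coactivator Ncoa1, and also the separate receptor Pparg. In it, 1 of 5 genes rose and 4 fell in D from C, where 30.5% of all genes rose and 31.0% fell. Pparg, a lipid-sensing nuclear receptor, was at 39.4 ± 8.83, 8.04 ± 2.70, 60.4 ± 5.15 and 10.9 ± 1.64 CPM in A, B, C and D (SD, n = 3). It fell by 2.47 on the log2 scale in D from C (adjusted p = 4.35e-09 in edgeR) and fell by 2.30 in B from A (adjusted p = 0.00273 in edgeR). From A to D it fell by 1.85 (adjusted p = 0.00117 in edgeR). Rxra, an RXR, fell by 1.37 from A to D (adjusted p = 0.00123 in edgeR).

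Of the oxysterol and sterol handling genes, 1 of 8 rose and 6 fell in D from C (30.5% and 31.0% of all genes), and 0 of 7 rose and 5 fell in B from A (17.9% and 19.4%). Nceh1, which frees cholesterol from stored esters, was at 356 ± 109, 95.7 ± 35.9, 408 ± 11.5 and 101 ± 2.83 CPM in A, B, C and D (SD, n = 3). It fell by 2.02 on the log2 scale in D from C (adjusted p = 1.15e-11 in edgeR), fell by 1.91 in B from A (0.00598) and fell by 1.81 from A to D (0.00173). Cyp27a1, the mitochondrial enzyme that makes another oxysterol, fell by 2.43 in D from C (adjusted p = 0.000682 in edgeR). Lipa, the lysosomal acid lipase, fell by 1.25 in B from A (adjusted p = 0.00549 in edgeR). Ch25h rose in both of these comparisons, while Cyp27a1 fell in the first and had a log2 fold change of -1.98 with an adjusted p of 0.294 in the second.

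Among 14 other LXR targets tested, 3 rose and 9 fell in D from C (30.5% and 31.0% of all genes), and 0 rose and 6 fell in B from A (17.9% and 19.4%). Arl4c, a small GTPase linked to cholesterol export, fell by 3.59 on the log2 scale in B from A (adjusted p = 0.00216 in edgeR) and fell by 2.50 from A to D (0.00400). Elovl6, which lengthens saturated fatty acids, fell by 3.40 in the first (adjusted p = 0.00141 in edgeR) and fell by 1.89 in D from C (0.00171). Fads1, a desaturase of polyunsaturated fatty acids, was at 136 ± 23.3, 19.4 ± 6.77, 187 ± 7.89 and 51.0 ± 1.96 CPM in A, B, C and D (SD, n = 3). It fell by 1.88 in D from C (adjusted p = 3.52e-11 in edgeR), fell by 1.41 from A to D (0.000957) and rose by 1.41 from B to D (0.00751). Smpdl3a, a phosphodiesterase, fell by 1.33 from B to D (adjusted p = 0.00776 in edgeR).
The list holds 6 genes of fatty acid synthesis, elongation and desaturation, Fasn, Acaca, Elovl5, Elovl6, Fads1 and Fads2, which were picked out after their values were seen and are given as a description. Their log2 fold changes ran from 1.00 (Elovl5) to 2.84 (Fads2) in D versus B, from -1.89 (Elovl6) to -0.07 (Acaca) in D versus C and from -3.40 (Elovl6) to -1.13 (Acaca) in B versus A. Among the other sterol export proteins, Scarb1, the scavenger receptor for high-density lipoprotein, fell by 1.69 in B from A (adjusted p = 0.00398 in edgeR) and fell by 1.19 from A to D (0.000926). Abca5 fell by 1.13 in D from C (adjusted p = 0.000214 in edgeR). Of the 3 tested in that comparison 1 rose and 2 fell (30.5% and 31.0% of all genes), and in B versus A 1 of 3 fell (19.4%). The changes named from the 4 lists kept an adjusted p under 0.05 when any 1 library was left out, at most 0.0491 for Smpdl3a. Not all stayed DEGs in these fits. In B versus A, Lipa was a DEG in 0 of 6 and Nceh1 and Scarb1 in 1 of 6 each. In D versus B, Fads1 and Smpdl3a were DEGs in 2 of 6 each. The changes named in D versus C stayed DEGs in 6 of 6, except Elovl6 in 5 of 6. In B versus A, Pparg, Nceh1, Lipa, Arl4c, Elovl6 and Scarb1 no longer passed without the 3 libraries highest in stroma markers, with adjusted p of 0.0626 to 0.216. With all 12 libraries in a single fit, Cyp27a1 and Abca5 no longer passed in D versus C (adjusted p of 0.134 and 0.101).

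**Figure D4:**
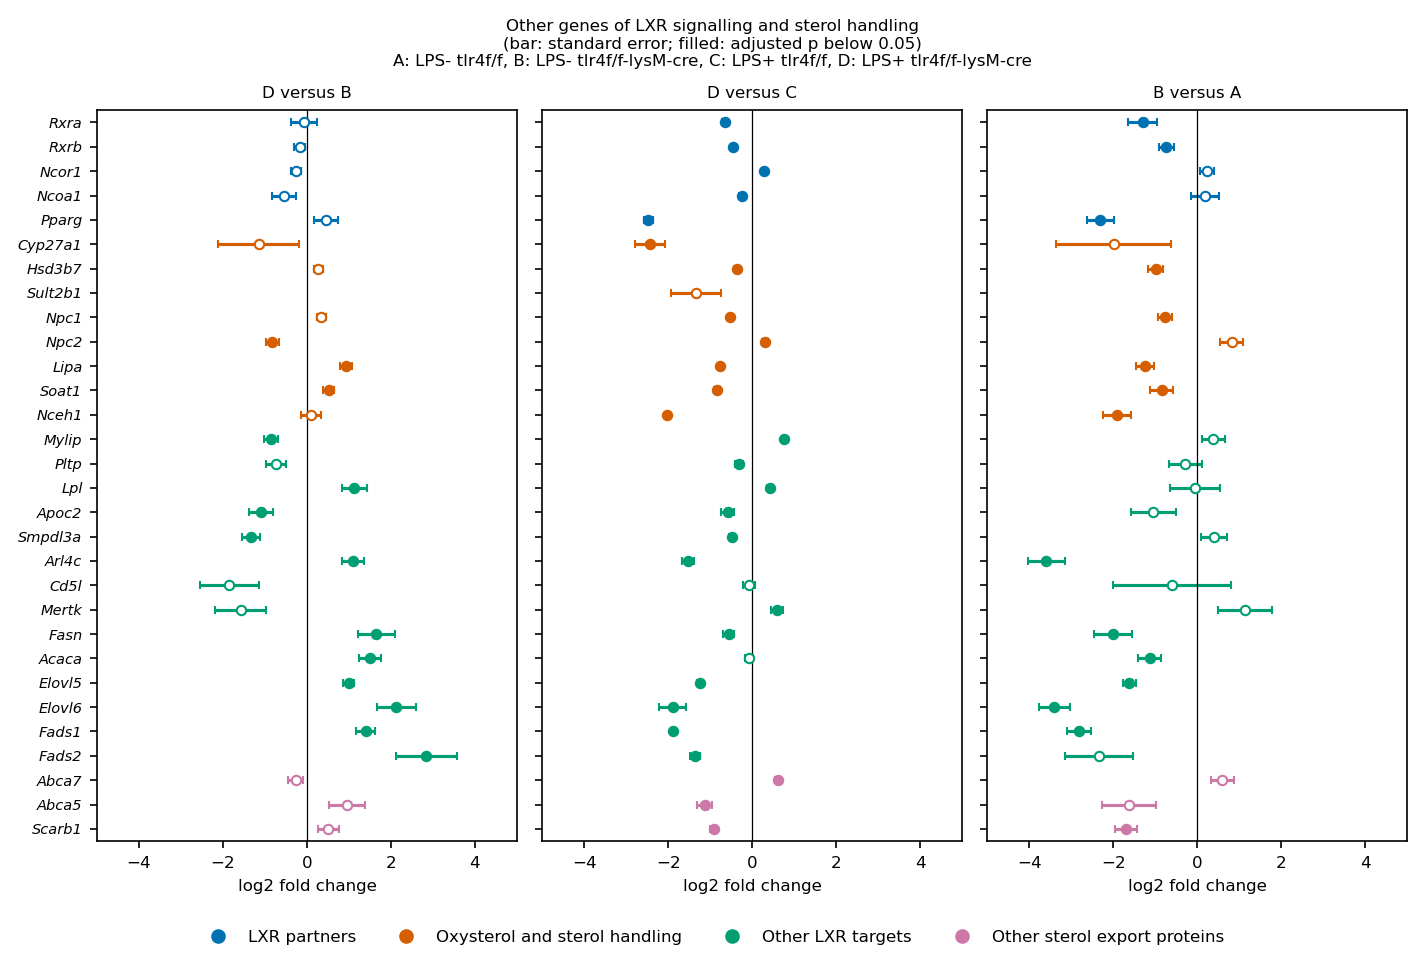
Log2 fold change of the pathway genes tested in 3 comparisons, with bars of 1 standard error, from edgeR, coloured by list and filled where the adjusted p was below 0.05. Of 29 genes in B versus A 15 fell and 0 rose, and of 30 in D versus C 21 fell and 6 rose.

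For each member, the 2 genes with the most alike pattern were found by Pearson's r of log2 CPM over the 12 libraries, among 15775 genes. The 12 points fall into 4 groups and share their libraries, so r is a description without a p-value. Nr1h3 was closest to Mrpl52 (r = 0.994) and Tpbg (0.989), and Nr1h2 to Tbc1d10b (0.985) and Atg4b (0.983). Abca1 was closest to Atp2a2 (0.982) and Eif4g2 (0.977), and Ch25h to Pttg1 (0.989) and Iqcg (0.988). Scd2 was closest to Ado (0.984) and Snapin (0.984), Scd1 to Stac2 (0.970) and Fam169a (0.961), and Lpcat3 to Diaph3 (0.978) and Etfb (0.957). The values were lower for Srebf1, with Car9 (0.957) and Pole (0.954), for Abcg1, with Vrk1 (0.923) and Dpp7 (0.912), and for Apoe, with Mir142hg (0.915) and Mir142b (0.905).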

How the data were processed

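RNA of 12 BMDM libraries, 3 per group, was depleted of rRNA per the labels (the study's methods name polyA RNA), made into libraries with a kit that does not mark strand and sequenced in pairs. The authors trimmed reads with Trimmomatic 0.36, aligned them to mm10 (HISAT2) and counted with HTSeq. Their deposited values are raw whole-number counts per transcript row, in 115140 rows, of which 8805 carry Ensembl identifiers. Of 7596 Ensembl gene identifiers, 7551 matched a symbol.

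Transcripts of a gene share reads, so the row with the highest total was taken for each of 43131 genes. Counts without molecular identifiers are not independent molecules. The main test was the robust quasi-likelihood fit of edgeR 4.0.16 in R 4.3.3, after filterByExpr and TMM scaling, with Benjamini-Hochberg adjustment over all genes tested. Pairs of groups used their 6 libraries and the interaction all 12. A DEG changed more than 2-fold at an adjusted p under 0.01, as in the study, which used DESeq. CPM are TMM-scaled, and r used log2 CPM with a prior count of 2. Each test was tested on simulated counts.

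The members and lists were chosen with earlier results of these data known. An item of the lists is not reported here. Genes named are the 10 members, Tlr4, Lyz2 and Il1b, for each pathway list and comparison the 2 most changed DEGs whose higher group had 10 or more counts in each library, and the 2 genes closest to each member, leaving out other members and predicted genes. Alternatives were DESeq2 1.42.0, voom of limma 3.58.1 with sample quality weights, RLE factors, a filter of 1 count or of 10 counts per library, a joint fit of all 12 libraries, the replicate number as a block, summed rows of a gene, a call on adjusted p under 0.05 alone, and the fit without each library. Leaving out the 3 libraries with the most counts of stroma markers was chosen after seeing the data. Promoters are from RefSeq on GRCm38.p6 and gene positions from GENCODE vM21, and motifs were searched with Python 3.11.15.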

Additional observations from a re-analysis of the deposited data

Results flagged for a closer look

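The difference of Scd2 in D versus C was unlike that in B versus A, by 2.59 on the log2 scale in the interaction test of edgeR (adjusted p = 0.00877). It is the effect of the genotype at both treatments as headed, and the effect of LPS in both genotypes with the exchange of headings.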

How the results depend on the processing

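Of 940 alternative values of a member's log2 fold change, 802 kept their direction and their side of an adjusted p of 0.05, 42 came to pass it, 44 no longer passed it and 52 changed sign, at a size of at most 0.463. The cause was not tested. The groups hold 3 libraries each, so 1 library often decides a call, and few counts limit Ch25h in C. DESeq2 called 3 members DEGs in C versus A, 4 in B versus A and 3 in D versus A. Over all genes it called 467 of 14701, 3992 of 14635 and 2965 of 14584. In D versus A, voom called 2 members and 2436 of 14584 genes. All 12 libraries in a single fit gave 4 members in B versus A and 2 in D versus A. Over all genes that fit gave 4251 and 2434 of 15775. Without the fold criterion 5 of 10 members passed in D versus B, where 12.5% of all genes rose and 14.2% fell. By the same rule 8 passed in D versus C (30.5% and 31.0%), 5 in B versus A (17.9% and 19.4%) and 3 in D versus A (20.4% and 20.4%). With RLE factors the interaction had 0 DEGs among members and 144 among 15775 genes. With rows summed it had 0 among members and 128 among 16791 genes. Leaving out 1 library gave 0 to 3 member DEGs in D versus B and 3 to 4 in D versus C. It gave 1 to 3 in B versus A, 0 to 2 in D versus A and 0 in C versus A. In the interaction it gave 0 to 1. Over all genes, in the same order, these fits called 4 to 1178, 3017 to 3152 and 1038 to 1682. The rest called 592 to 2291, 0 to 184 and 10 to 306. In D versus B, dropping 1 replicate of D gave 4 to 15, against 865 with all. In the interaction, dropping 1 of C or D gave 10 to 21, against 164. Dropping 1 of B gave 161 to 306 there, and Scd2 was not a DEG in either case. Same-numbered libraries deviated from their group means with correlations of -0.038 to 0.472, not above 0.1 in every pair, so the numbers were not taken as pairs. For replicates 1, 2 and 3 they were 0.472, 0.34 and 0.014 in B versus A and 0.058, 0.073 and 0.19 in D versus C. With the replicate number as a block there were 4 DEGs among members in B versus A, 0 in D versus A and 0 in the interaction. Over all genes there were 2198 of 14635, 922 of 14584 and 129 of 15775. With this block, the falls of Scd1 and Scd2 in D from C had adjusted p of 2.24e-11 and 1.1e-10 in edgeR. Abcg1 turned to 0.030 in D versus A.

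The other changes of sign were in members near 0 or with a wide spread. In D versus A, Abcg1 was 0.014 by DESeq2, 0.014 with RLE factors and 0.073 by voom. In D versus B, Abca1 was -0.0020 by DESeq2 and -0.0020 with RLE factors. In the interaction, Abcg1 was -0.060 by DESeq2, -0.060 with RLE factors, -0.0045 by voom and -0.0031 with 10 counts required in each library, while Nr1h3 was 0.027 and Abca1 0.039 by voom. Without the 3 libraries highest in stroma markers, Abcg1 was -0.012 in C versus A, -0.46 in D versus B, 0.28 in B versus A and -0.42 in the interaction. There, Apoe was -0.28 in B versus A and 0.25 in the interaction, and Lpcat3 was 0.19 and -0.14. Leaving out 1 library gave, in C versus A, -0.14 to 0.51 for Abca1, -0.012 to 0.33 for Abcg1, -0.83 to 0.0032 for Apoe and -0.16 to 0.026 for Srebf1. In D versus B it gave -0.086 to 0.16 for Abca1 and -0.076 to 0.67 for Abcg1, and in D versus C -0.25 to 0.097 for Apoe and -0.047 to 0.066 for Lpcat3. In B versus A it gave -0.67 to 0.083 for Abcg1, -0.32 to 0.93 for Apoe and -0.22 to 0.12 for Lpcat3, and in D versus A -0.21 to 0.14 for Abcg1. In the interaction it gave -0.45 to 0.27 for Nr1h3, -0.46 to 0.19 for Abca1, -0.24 to 0.50 for Abcg1, -0.99 to 0.27 for Apoe, -0.078 to 0.56 for Scd1 and -0.084 to 0.23 for Lpcat3.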
